A study of Mus musculus with 11 samples.

Results

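The MHC class II antigen presentation genes examined here were H2-Aa, H2-Ab1, H2-Eb1, H2-DMa, Cd74, Ciita, Cd207, Ctss, Epcam and Itgax, which are 10 of the 18193 genes that the arrays name. They were chosen by symbol, taking every probe set (a group of short probes for 1 transcript) whose annotation gives 1 gene symbol and whose symbol is on that list. This gave 19 probe sets, of which 16 passed a filter on dim signal and were tested. RNA came from keratinocytes of the back skin of K5-myrAkt(L84) mice, bound with an antibody against CD34 and parted on magnetic beads. Single arrays were run for 5 CD34+ samples, labelled as hair follicle stem cells, and for 6 CD34- samples. For the CD34- samples the label names follicle stem cells as well, while the design text calls them cells only. Both fractions carry the transgene, an activated form of Akt driven by the keratin 5 promoter, which acts in basal cells of stratified epithelia. No sample without the transgene was analysed here, and the labels give no age, sex, haplotype or hair cycle stage of the mice. Nothing in the labels ties the arrays to separate mice, so p-values cover the spread between these arrays alone.

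MHC class II molecules are pairs of an alpha and a beta chain that show peptides from engulfed proteins to CD4 T cells. New chains are held by the invariant chain, the product of Cd74, until lysosomal proteases such as cathepsin S (Ctss) trim it and H2-DM exchanges the last fragment for a peptide. Transcription of these genes depends on the coactivator CIITA, which docks onto RFX, CREB and NF-Y factors bound at the X and Y boxes of their promoters. In mouse epidermis the resident class II cells are Langerhans cells, which also carry langerin (Cd207), EpCAM and CD11c (Itgax). Keratinocytes can be induced to make class II by interferon gamma.

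A stretch of promoter shared by 5 class II genes is shown because it carries the boxes through which CIITA acts. RefSeq promoter windows of build GRCm38.p6, which run from 250 bases before to 50 bases after a start site, were matched for 7 of the 10 genes, with 8 windows in all. Capitals mark GCAAC, which is part of the X box, and ATTGG, the core of the Y box, and 10 bases are given on either side of the pair, 5′ to 3′. The H2-Aa stretch lies at chr17:34287857-34287914 on the minus strand. The others lie on the plus strand, H2-Eb1 at chr17:34305766-34305822, H2-Oa at chr17:34092293-34092350, H2-Ob at chr17:34238808-34238862 and H2-Eb2 at chr17:34325533-34325589.
H2-Aa: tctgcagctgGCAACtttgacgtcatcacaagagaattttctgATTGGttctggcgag
H2-Eb1: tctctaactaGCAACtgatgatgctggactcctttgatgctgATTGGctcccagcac
H2-Oa: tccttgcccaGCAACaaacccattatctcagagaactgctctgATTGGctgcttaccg
H2-Ob: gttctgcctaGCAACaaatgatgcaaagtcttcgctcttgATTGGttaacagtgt
H2-Eb2: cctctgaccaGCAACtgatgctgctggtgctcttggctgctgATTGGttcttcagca
The GCAAC began 81 bases before the start site in H2-Aa and 91 in H2-Eb1. The ATTGG began 33 bases further on in H2-Aa and 32 in H2-Eb1.

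The pair, GCAAC followed by ATTGG on 1 strand with 15 to 35 bases between, was searched on both strands of all 32851 windows and found in 1.02%. These letters were picked after the windows had been read. By themselves ATTGG was found in 37.4% and GCAAC in 35.2% of windows, on either strand. The pair was found in 2 of the 8 windows of the genes examined, those of H2-Aa and H2-Eb1, and in 3 of 5 windows of other class II genes. Neither of the H2-DMa windows held the pair, although the one at chr17:34125268-34125567 held ATTGG and the one at chr17:34122582-34122881 held GCAAC. The windows of Ctss, Cd207 and Epcam held neither motif, and that of Itgax held both but not as the pair. A match describes letters and does not show binding. Only these exact letters were searched, so a miss does not show that a promoter lacks an X or Y box.

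The arrays differed in ways that touch every result on these genes. The actin ratio, the log2 signal of the actin control probe set at the 3-prime end minus that at the 5-prime end, rises as RNA or its labelled copies become shorter. It was 5.25, 4.56, 3.97, 2.91 and 3.06 on CD34+ arrays 1 to 5, against 2.19 to 2.76 on the 6 CD34- arrays, with no overlap. The median log2 signal of all probe sets was 6.71 to 7.23 on CD34+ arrays and 6.36 to 6.51 on CD34- arrays. Setting these medians equal moved the median difference of all tested probe sets to -0.46, against 0.02 as deposited and -0.09 after quantile normalization. Cd34, the sorted gene, differed by 7.63 on the log2 scale (SE 0.69, adjusted p = 1.98e-05).

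Of the 10 genes, each read by its brightest probe set, 5 were higher in CD34+ cells at an adjusted p under 0.05 in limma, none was lower and 5 were not called. The 5 were H2-Aa, H2-Ab1, H2-DMa, Ctss and Itgax. Over all 11891 genes with a tested probe set, 11.6% were called higher and 10.5% lower. The median log2 difference (CD34+ minus CD34-) of the 10 genes was 0.63, beside 0.02 over all genes, and the single differences ran from -0.64 to 1.04. By probe set, 7 of 16 were called higher and none lower, beside 11.0% and 9.77% of the 20967 tested. With equal medians no gene of the 10 was called higher and Epcam was called lower, beside 3.57% higher and 42.3% lower over all genes. In bulk RNA, more cells of a type and more RNA per cell cannot be told apart.

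**Figure D1:**
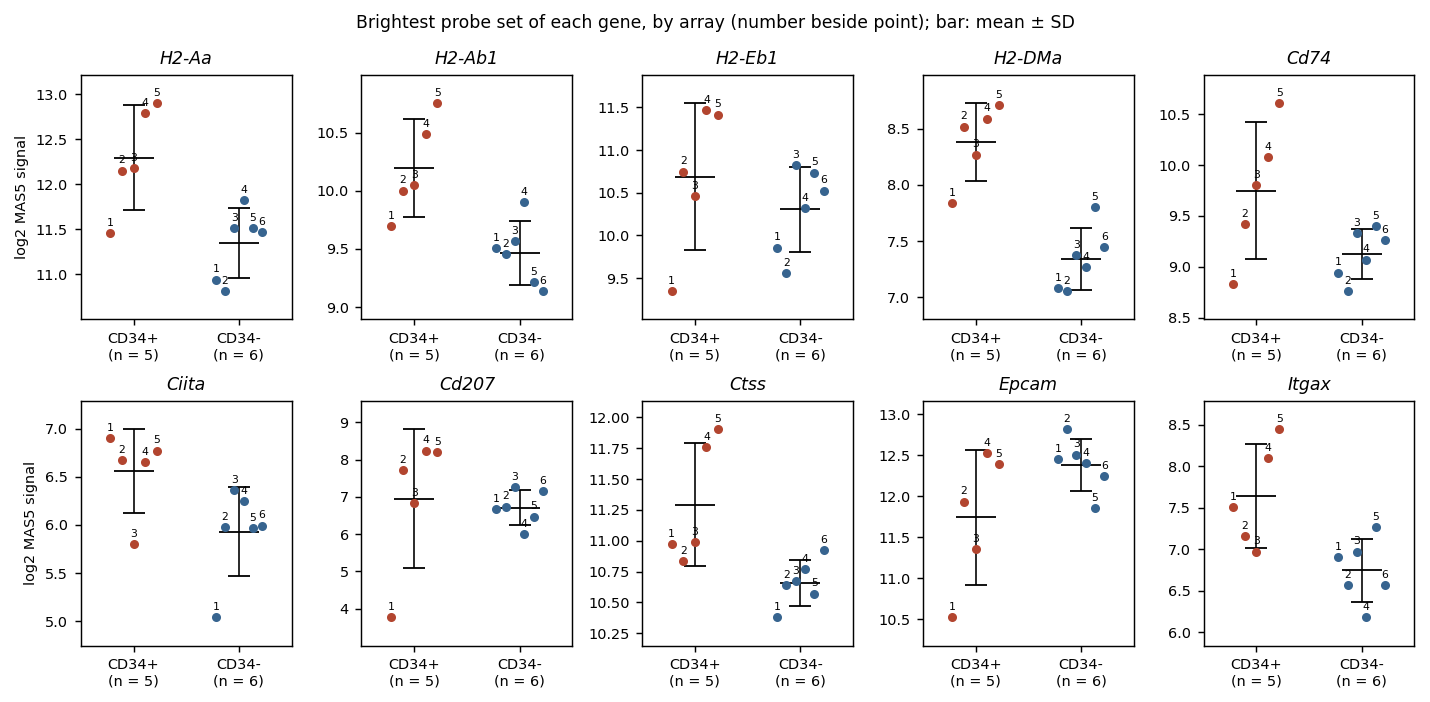
Log2 MAS5 signal of the brightest probe set of each gene on every array, with CD34+ at the left and CD34- at the right of each panel, the array number beside each point, and bars for the mean ± SD (n = 5 and n = 6). CD34+ arrays 4 and 5 are the 2 highest of all 11 for 8 of the 10 genes, and H2-DMa is the gene whose groups do not overlap.

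H2-Aa encodes the alpha chain of the I-A molecule. Its brightest probe set, 1435290_x_at, read 11.46, 12.15, 12.18, 12.79 and 12.90 log2 signal on CD34+ arrays 1 to 5, against 10.94, 10.82, 11.51, 11.82, 11.51 and 11.47 on CD34- arrays 1 to 6. CD34+ array 1 lay among the CD34- arrays and the other 4 lay above all of them. The log2 difference was 0.95 (SE 0.25, adjusted p = 0.0169), a 1.93-fold higher signal, and it stayed called without any single array (highest adjusted p = 0.0389). Without CD34+ arrays 4 and 5 together it was 0.58 (adjusted p = 0.0963), and with equal medians 0.47 (adjusted p = 0.2). The exact rank-sum test did not call it (adjusted p = 0.15).

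The 3 other H2-Aa probe sets did not all follow. On 1438858_x_at the CD34+ arrays read 10.92, 11.05, 10.94, 12.59 and 12.47, against 9.27 to 10.56 on CD34- arrays, so that the groups did not overlap. Its difference was 1.52 (SE 0.35, adjusted p = 0.00944), and it stayed called both with equal medians (1.04, adjusted p = 0.0432) and when CD34+ arrays 4 and 5 were dropped (0.90, adjusted p = 0.0431). On 1443783_x_at the difference was 1.30 (SE 0.32, adjusted p = 0.013), with 4 of 5 CD34+ arrays above all CD34- arrays. On 1452431_s_at CD34+ arrays 1 to 3 read 8.04, 7.97 and 8.32, inside the CD34- range of 7.98 to 8.72 or just below it, while arrays 4 and 5 read 9.64 and 9.68. Its difference was 0.23 (SE 0.32, adjusted p = 0.626). Probe sets ending in x or s can bind related transcripts, and all 4 H2-Aa probe sets are of these kinds.

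H2-Ab1 encodes the I-A beta chain. On its brightest probe set, 1450648_s_at, the CD34+ arrays read 9.70, 10.002, 10.05, 10.49 and 10.76 log2 signal, against 9.51, 9.45, 9.57, 9.90, 9.22 and 9.14 on CD34- arrays. Only CD34+ array 1 fell inside the CD34- range. The difference was 0.73 (SE 0.20, adjusted p = 0.019), 0.75 after quantile normalization (adjusted p = 0.0208), 0.25 with equal medians (adjusted p = 0.398) and 0.45 without CD34+ arrays 4 and 5 (adjusted p = 0.102). That probe set ends in s, so it too can bind related transcripts. The middle probe set, 1451721_a_at, which ends in neither x nor s, was not called. It gave a like difference of 0.72 with a wider error (SE 0.32, adjusted p = 0.119). The dimmest, 1425477_x_at, split the CD34+ arrays into 5.44, 5.46 and 5.59 on arrays 1 to 3 and 7.90 and 8.48 on arrays 4 and 5. All 6 CD34- arrays, at 6.33 to 7.69, lay in between, and its mean difference was -0.40 (SE 0.55, adjusted p = 0.625). Without CD34+ arrays 4 and 5 it was -1.48 (adjusted p = 0.0152).

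H2-Eb1, the beta chain of the I-E molecule, read 9.35, 10.75, 10.46, 11.47 and 11.42 on CD34+ arrays and 9.86, 9.56, 10.82, 10.32, 10.74 and 10.52 on CD34- arrays. CD34+ array 1 was the lowest of all 11 and arrays 4 and 5 the highest. The difference of 0.39 (SE 0.34, adjusted p = 0.44) did not pass the test, and its 95% interval ran from -0.35 to 1.12. It turned to -0.095 with equal medians and to -0.12 when CD34+ arrays 4 and 5 were dropped, neither of them called. H2-Ea, the I-E alpha chain, which some mouse haplotypes do not transcribe, was read by its brightest probe set, 1422892_s_at, on which CD34+ arrays 4 and 5 stood apart. It read 10.19, 10.58 and 10.22 on CD34+ arrays 1 to 3 and 12.93 and 12.76 on arrays 4 and 5, against 10.17 to 11.35 on CD34- arrays (difference 0.63, SE 0.48, adjusted p = 0.364).

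Cd74 encodes the invariant chain. Its probe set read 8.83, 9.42, 9.80, 10.08 and 10.62 on CD34+ arrays, against 8.94, 8.76, 9.34, 9.07, 9.40 and 9.26 on CD34- arrays. All but CD34+ array 1 lay above every CD34- array, array 2 only just. The difference of 0.62 (SE 0.26, adjusted p = 0.0966) was not called. It was 0.85 and called when CD34+ array 1 was left out (adjusted p = 0.0126). With CD34+ arrays 4 and 5 left out it was 0.22 (adjusted p = 0.501).

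H2-DMa encodes the alpha chain of H2-DM, the peptide exchange factor. Its brighter probe set read 7.84, 8.52, 8.27, 8.59 and 8.71 on CD34+ arrays, against 7.08, 7.06, 7.38, 7.27, 7.80 and 7.45 on CD34- arrays. Every CD34+ array lay above every CD34- array, which held for 7.20% of all tested probe sets. The difference was 1.04 (SE 0.21, adjusted p = 0.00416), a 2.06-fold higher signal, and it was the smallest adjusted p among the brightest probe sets of the 10 genes. It was called without CD34+ arrays 4 and 5 (0.87, adjusted p = 0.0276) and after quantile normalization (0.80, adjusted p = 0.0228), but not with equal medians (0.56, adjusted p = 0.0671). The dim second probe set, 1459872_x_at, did not pass the filter and read 4.08 to 6.70 in CD34+ cells and 5.96 to 6.50 in CD34- cells. H2-DMb2, a beta chain of H2-DM, gave 1.35 on its brightest probe set (SE 0.60, adjusted p = 0.121) and 1.40 on a second one (adjusted p = 0.0418).

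Ctss encodes cathepsin S, which cuts the invariant chain in antigen presenting cells. It read 10.98, 10.84, 10.99, 11.76 and 11.91 on CD34+ arrays and 10.38, 10.64, 10.67, 10.77, 10.57 and 10.92 on CD34- arrays. CD34+ arrays 1 to 3 lay at or just above the top of the CD34- range, with array 2 inside it. The difference was 0.63 (SE 0.20, adjusted p = 0.0352) and lost its call in 7 of the 11 fits that each dropped an array, where the adjusted p reached 0.0794. Without CD34+ arrays 4 and 5 it was 0.28 (adjusted p = 0.185), and with equal medians it was 0.15 (adjusted p = 0.641).

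Ciita, the coactivator gene, was dim, its brightest probe set standing at the 41.9th percentile of probe sets by mean signal. It read 6.90, 6.67, 5.80, 6.65 and 6.77 on CD34+ arrays and 5.04, 5.98, 6.36, 6.25, 5.96 and 5.99 on CD34- arrays. CD34+ array 3 lay below 5 of the 6 CD34- arrays, and CD34+ array 1, low for most of the other genes, was the highest. The difference of 0.63 (SE 0.33, adjusted p = 0.181) was not called and was 0.11 after quantile normalization. It was called with low values raised to the 40th percentile of each array (0.57, adjusted p = 0.0211). Both other Ciita probe sets failed the filter, with differences of 0.85 on 1421211_a_at and 0.55 on 1447075_at that were not tested.

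The 3 surface markers of Langerhans cells did not move together. Cd207, which encodes langerin of the Birbeck granule, read 3.76, 7.72, 6.82, 8.24 and 8.20 on CD34+ arrays, against 6.66, 6.74, 7.26, 5.99, 6.47 and 7.15 on CD34- arrays. CD34+ array 1 was far below all others and 3 of the CD34+ arrays were above every CD34- array. The difference was 0.24 (SE 0.65, adjusted p = 0.818). It was 1.04 and called when CD34+ array 1 was dropped (adjusted p = 0.0369). After quantile normalization it was -0.14 and without CD34+ arrays 4 and 5 it was -0.61, neither of them called.

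Itgax, the alpha subunit of the CD11c integrin of dendritic cells, read 7.51, 7.16, 6.97, 8.10 and 8.45 on CD34+ arrays and 6.90, 6.57, 6.97, 6.18, 7.27 and 6.57 on CD34- arrays. CD34+ arrays 2 and 3 lay within the CD34- range. The difference of 0.89 (SE 0.30, adjusted p = 0.0476) lost its call in 8 of the 11 fits that each dropped an array, where the adjusted p reached 0.11, and also with no brightness filter (adjusted p = 0.0749) and after quantile normalization (0.49, adjusted p = 0.322).

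Epcam, which encodes an adhesion protein of Langerhans cells and of simple epithelia, gave opposite signs by probe set. Its brightest, 1416579_a_at, read 10.52, 11.94, 11.36, 12.52 and 12.39 on CD34+ arrays, against 12.46, 12.82, 12.51, 12.41, 11.86 and 12.25 on CD34- arrays. CD34+ arrays 1 and 3 lay below every CD34- array and the other 3 lay within their range. The difference was -0.64 (SE 0.30, adjusted p = 0.136) and -1.11 when CD34+ arrays 4 and 5 were dropped (adjusted p = 0.0159). A fit that held the actin ratio turned it to 0.44 (adjusted p = 0.589). The other probe set, 1447899_x_at, differed by 0.49 (SE 0.23, adjusted p = 0.143). By mean signal 1416579_a_at stood at percentile 96.0 of probe sets, against 49.1 for Cd207. Which cells made the Epcam signal was not tested.

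**Figure D2:**
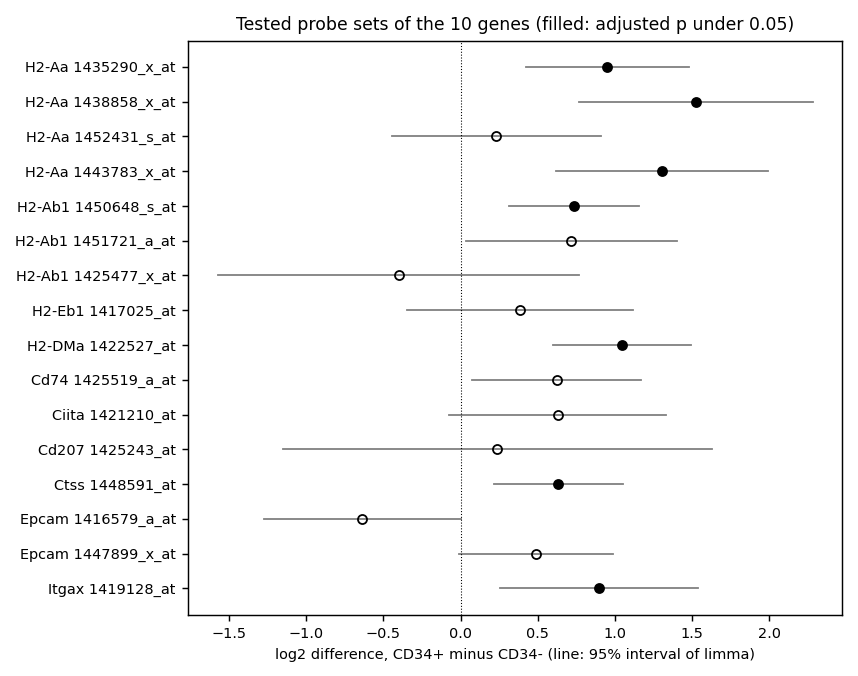
Log2 difference, CD34+ minus CD34-, of the 16 tested probe sets, with lines for the 95% interval from limma and filled points for an adjusted p under 0.05. The called differences run from 0.63 for Ctss to 1.52 for H2-Aa 1438858_x_at, and the lowest is -0.64 for Epcam.

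Most of the genes, though not Epcam or Ciita, were highest on the same CD34+ arrays. CD34+ arrays 4 and 5 were the 2 highest of all 11 for 8 of the 10 genes and for 13 of the 16 tested probe sets, beside 2.44% of all tested probe sets. CD34+ arrays 1 to 3 all lay below arrays 4 and 5 for 9 of the 10 genes, Ciita being the exception, and CD34+ array 1 was the lowest CD34+ array for 7. The spread was wider among CD34+ than among CD34- arrays for 9 of the 10 genes. Array weights, which fall as an array scatters more over all tested probe sets, were 0.21, 0.44 and 0.55 on CD34+ arrays 1 to 3. They were 1.44 and 1.39 on CD34+ arrays 4 and 5, and 1.28 to 1.75 on CD34- arrays. CD34- arrays 1 and 2 were the 2 lowest CD34- arrays for 4 genes. Apart from that of the 2 highest arrays, these counts were not set beside a share of all genes. They are not read as particular to the genes examined.

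A class II profile was made as the mean of H2-Aa, H2-Ab1, H2-Eb1 and Cd74 after each was centred on its mean over the arrays. It stood at -0.53, 0.21, 0.26, 0.84 and 1.06 on CD34+ arrays 1 to 5, and between -0.72 and -0.06 on CD34- arrays. Within CD34+ arrays the 2 highest profile values came from the 2 lowest actin ratios and the lowest value from the highest ratio. CD34- arrays, with lower actin ratios than any CD34+ array, had lower profile values than 4 of the 5 CD34+ arrays. With the actin ratio as a covariate, H2-Aa (1.79), H2-Ab1 (1.38), Cd74 (1.55), H2-DMa (1.45) and Ctss (1.24) were called higher, at adjusted p of 0.0121 to 0.0454. Since the ratios of the fractions do not overlap, this fit compares them at ratios not found in both. Its differences rest on extrapolation, and it cannot part the fraction from the actin ratio. In that fit 0.673% of all genes were called higher and 0.143% lower, and the standard errors of the brightest probe sets of all 10 genes were wider, such as 0.30 in place of 0.21 for H2-DMa and 0.53 in place of 0.33 for Ciita. Itgax lost its call there (1.55, SE 0.43, adjusted p = 0.132).

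**Figure D3:**
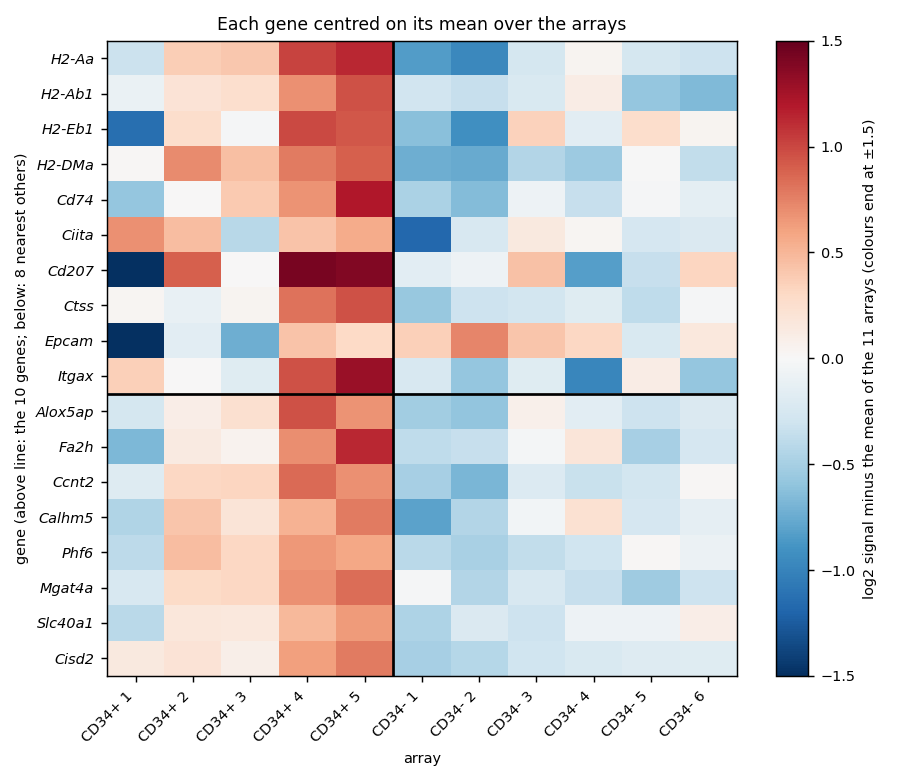
Log2 signal of the 10 genes (above the line) and of the 8 other genes nearest to the class II profile (below it), each minus its mean over the 11 arrays, with CD34+ arrays left of CD34- arrays. The reds of CD34+ arrays 4 and 5 run through the class II genes. Epcam is above its mean on these arrays too (0.43 and 0.30), but also on 5 of the 6 CD34- arrays, and is lowest on CD34+ array 1.

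Among the genes examined, those outside the profile that lay nearest to it, by the root mean square difference of centred log2 values over the 11 arrays, were Ctss (0.27) and H2-DMa (0.31). Itgax (0.45) and Ciita (0.53) lay further off, and Epcam (0.77) and Cd207 (0.91) furthest. This measure is not scaled, so a single far value weighs heavily. Centred Cd207 stood at -3.06 on CD34+ array 1, where its signal was dim, against -0.53 for the profile. Like the profile, Cd207 was highest on CD34+ arrays 4 and 5. Of 11881 other genes, 8 lay nearer to the profile than Ctss and 10550 lay nearer than Cd207. The 8 nearest were Alox5ap (0.17), which encodes the activating protein of 5-lipoxygenase in leukotriene synthesis of myeloid cells, then Fa2h (0.20), Ccnt2 (0.20), Calhm5 (0.21), Phf6 (0.24), Mgat4a (0.27), Slc40a1 (0.27) and Cisd2 (0.27). Alox5ap read 8.02, 8.37, 8.52, 9.23 and 8.95 on CD34+ arrays and 7.69 to 8.35 on CD34- arrays. Its difference was 0.63 (SE 0.22, adjusted p = 0.0547).

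**Figure D4:**
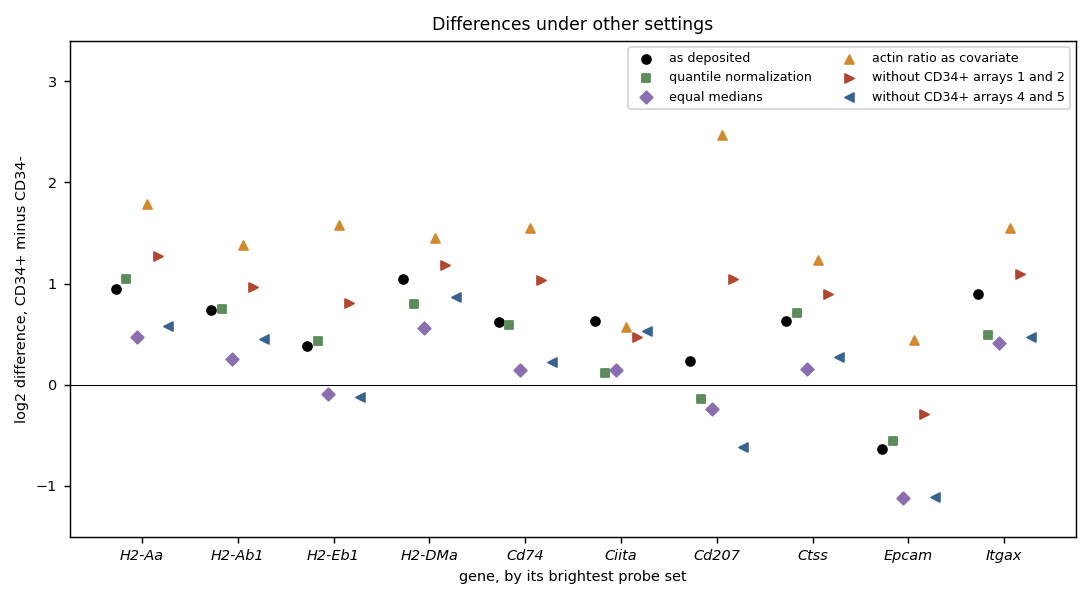
Log2 difference, CD34+ minus CD34-, of the brightest probe set of each gene as deposited and under 5 other settings, 1 marker shape for each. H2-Aa, H2-Ab1, H2-DMa, Cd74, Ciita, Ctss and Itgax stay above 0 in all 6, whereas H2-Eb1, Cd207 and Epcam cross it.

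The step from arrays 1 to 3 to arrays 4 and 5 weighed on the counts. Without CD34+ arrays 4 and 5 together, 1 of the 10 genes was called higher, H2-DMa, and 1 lower, Epcam, beside 11.8% and 11.6% of all genes. Without CD34+ arrays 1 and 2 together, 6 were called higher, the 5 called with all arrays and Cd74, and none lower, beside 7.53% and 6.83% of all genes. On leaving out single arrays, 3 to 6 genes were called higher, beside 8.18% to 12.1% of all genes, and none lower. It was 3 without CD34+ array 4 or 5 and without CD34- array 1, 2, 3 or 4.

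Of the other class II genes listed, 5 were on the arrays and H2-DMb1 had no probe set with 1 symbol. By their brightest probe set 2 were tested and none was called. Of the factors that bind class II promoters, 7 of 7 were tested, 1 rose and 3 fell (median -0.31). Nfyb (-0.69, SE 0.14, adjusted p = 0.00429) and Nfya (-0.49, SE 0.17, adjusted p = 0.0498), subunits of NF-Y, and Creb1 (-0.45, SE 0.12, adjusted p = 0.018) fell, and Nfyc (0.29, SE 0.10, adjusted p = 0.0488) rose. Rfx5, Rfxank and Rfxap differed by -0.14, -0.31 and -0.20, none of them called. Of 8 tested genes from interferon gamma to Ciita, none rose and 2 fell (median -0.50). Ifngr1, a chain of the interferon gamma receptor, fell by 1.30 (SE 0.25, adjusted p = 0.00344) with no overlap between the fractions, and the kinase gene Jak1 fell by 0.73 (SE 0.22, adjusted p = 0.0296). The choice of Nfya, Nfyc, Rfx5, Rfxank and Rfxap was made with their values known.

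Of 12 genes of lysosomal antigen processing, none rose and 3 fell (median 0.02). The protease genes Ctsh (-0.55, SE 0.14, adjusted p = 0.014) and Ctsd (-0.62, SE 0.16, adjusted p = 0.0159) fell without overlap, and so did Cst7 (-1.76, SE 0.47, adjusted p = 0.0183), an inhibitor of cysteine proteases named after its value was seen. Both tested genes of class II turnover fell. They were Marchf8 (-0.62, SE 0.17, adjusted p = 0.0232), a ubiquitin ligase, and Cd83 (-1.05, SE 0.29, adjusted p = 0.0235), which counters such ligases. Marchf1, also on that list and named after its value was seen, was too dim to be tested. It read 5.21 to 6.70 on CD34+ arrays and 4.82 to 5.89 on CD34- arrays. None of 4 tested costimulation genes was called. Cd86, a ligand of CD28, differed by 1.23 (SE 0.45, adjusted p = 0.0648) and Cd274 by -0.32 (SE 0.20, adjusted p = 0.247).

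On chromosome 17 the class II genes are interleaved with genes of class I peptide supply. In the RefSeq order of GRCm38.p6 the row runs H2-DMa, H2-DMb2, H2-DMb1, Psmb9, Tap1, Psmb8, Tap2, H2-Ob, Gm20506, H2-Ab1, H2-Aa, H2-Eb1 and H2-Eb2. The 4 genes in its middle, which serve peptide supply to class I, differed by -0.63 for Psmb9 (SE 0.23, adjusted p = 0.0643), -0.06 for Tap1 (adjusted p = 0.789), -0.55 for Psmb8 (SE 0.11, adjusted p = 0.00486) and -0.18 for Tap2 (adjusted p = 0.601). H2-DMa on 1 side and H2-Ab1 and H2-Aa on the other were called higher. Over the class I list, 9 genes were tested, none rose and Psmb8 fell (median -0.18). H2-Ob and H2-Eb2, whose promoters hold the GCAAC and ATTGG pair, were too dim to be tested, as was H2-Oa.

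Markers of the cells that could carry class II moved in different directions. Of 6 tested macrophage and monocyte markers 3 rose and none fell (median 1.05). Csf1r, the CSF1 receptor gene, rose by 1.20 (SE 0.34, adjusted p = 0.0251), with 9.85, 10.51, 9.88, 11.66 and 11.52 on CD34+ arrays and 8.82 to 9.99 on CD34- arrays. Its 2 other probe sets, at 0.36 and 0.97, were not called. Adgre1, which encodes F4/80, rose by 1.03 (SE 0.26, adjusted p = 0.0133). C1qb, a complement gene of macrophages picked once its value was known, rose by 1.95 (SE 0.24, adjusted p = 1.83e-04), but was highest on CD34+ arrays 1 to 3 (8.71, 8.67 and 8.48) and lower on arrays 4 and 5 (7.81 and 8.003). A second C1qb probe set, 1437726_x_at, read 8.07 on both of those arrays and differed by 1.90 (adjusted p = 1.01e-04). The summed linear signal of the 13 listed genes was 2335 to 4725 on CD34+ arrays and 1091 to 1803 on CD34- arrays. Without Csf1r, a sum chosen after the values were seen, the other 12 read 1640, 1932, 1391, 1489 and 1460 on CD34+ arrays 1 to 5 and 554 to 783 on CD34- arrays. In that sum CD34+ arrays 4 and 5 were not the highest, and the fractions still did not overlap.

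Of 10 pan leukocyte genes 1 rose and 3 fell (median -0.83). Ptprc, which encodes CD45, read 7.48, 8.72, 8.97, 10.02 and 10.29 on CD34+ arrays, against 10.34 to 11.24 on CD34- arrays, and fell by 1.81 (SE 0.40, adjusted p = 0.00755). CD34+ arrays 4 and 5 were again the highest of their fraction. Laptm5, a lysosomal protein gene of blood cells, differed by -0.78 (SE 0.30, adjusted p = 0.0746), and Tyrobp, a signalling adaptor of myeloid and NK cells picked once its value was known, rose by 0.85 (SE 0.25, adjusted p = 0.0279). Of 6 tested T cell markers 5 fell and none rose (median -1.88), among them Thy1 (-1.20, SE 0.27, adjusted p = 0.00785) and Cd3g (-2.69, SE 0.78, adjusted p = 0.0276). The summed T cell signal was 381 to 1465 on CD34+ arrays and 2175 to 4320 on CD34- arrays.

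The Langerhans list holds 20 genes, of which 16 were tested, 6 rose and none fell (median 0.58). It includes H2-Aa, H2-Ab1, H2-Eb1, Cd74, Cd207, Epcam and Itgax, which are among the 10 genes examined. The calls of H2-Aa, H2-Ab1 and Itgax in it are therefore those given above, counted again. Outside the 10 genes, those called were Csf1r, Id2 and Mfge8. Mfge8 (2.45, SE 0.32, adjusted p = 2.94e-04) and Id2 (1.21, SE 0.30, adjusted p = 0.0145), both named after their values were seen, are also expressed outside Langerhans cells and were highest on CD34+ array 1. Cd24a, the brightest gene of the list, differed by 0.55 (SE 0.21, adjusted p = 0.0733). Of 12 dendritic cell markers on the arrays 4 were tested, 2 fell and none rose (median -1.03). Itgae (-1.69, SE 0.32, adjusted p = 0.00324) and Irf4 (-2.10, SE 0.67, adjusted p = 0.0398) fell, and Itgae is also an integrin gene of epidermal T cells. Irf8 (0.71, SE 0.32, adjusted p = 0.126) and Ccr2 (-0.37, SE 0.54, adjusted p = 0.65), named after their values were seen, were not called. The 2 tested B cell markers, Pax5 (0.63) and Blk (-0.14), were not called. The part of any of these cells in the class II differences was not tested.

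**Figure D5:**
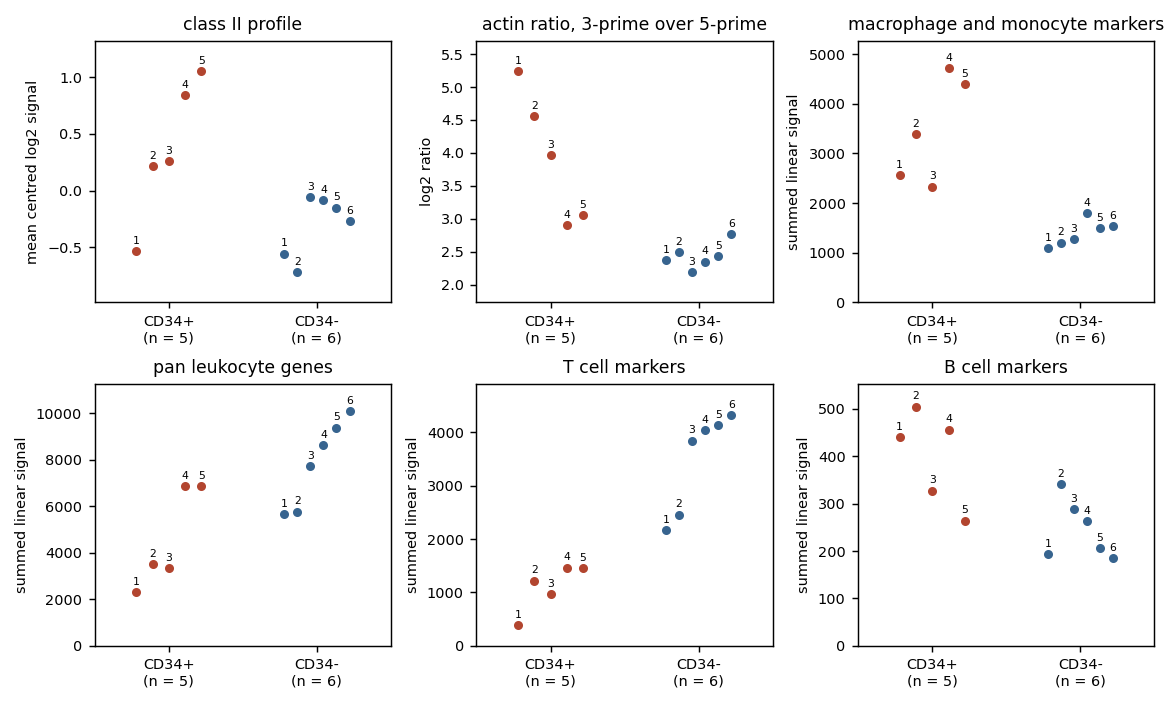
The class II profile (mean centred log2 signal), the actin ratio (log2) and the summed linear signal of 4 marker lists on each array, CD34+ left of CD34-, with the array number beside each point. On CD34+ arrays 4 and 5 the class II profile and the pan leukocyte sum are the highest of the CD34+ fraction, as is the macrophage sum with Csf1r in it but not without it, and T cell sums of all CD34+ arrays lie below all CD34- arrays.

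The sorted cells themselves and other cells of the skin were also read. The 8 keratinocyte markers had a median of -0.19 with 2 lower and none higher. The brightest, Krt10 (0.36, adjusted p = 0.0501) and Krt15 (0.47, adjusted p = 0.0531), were not called. The 2 lower were Itga6 (-0.53, SE 0.10, adjusted p = 0.00273) and Trp63 (-0.38, SE 0.13, adjusted p = 0.0462), both named after their values were seen. All 4 tested fibroblast markers rose, such as Col1a2 (3.49, SE 0.26, adjusted p = 5.52e-06) and Dcn (1.53, SE 0.24, adjusted p = 0.00104). Neither tested endothelial marker, Kdr (0.12) or Flt1 (0.67), was called. Of 6 melanocyte markers only Mitf rose (1.42, SE 0.33, adjusted p = 0.00888), and Dct, the brightest, differed by -0.50 (adjusted p = 0.409). CD34- arrays 1 and 2 stood apart in these markers, with Dct at 13.38 and 13.58, against 10.88 to 11.67 on the other CD34- arrays, and with summed signals of 22790 and 25452, against 4660 to 6471. The same arrays were the 2 lowest CD34- arrays for 4 of the 10 genes, and leaving out either left 3 genes called higher, as did leaving out CD34- array 3 or 4. The part of these 2 arrays in the class II differences beyond that was not tested. The 1 mast cell marker tested, Kit, which melanocytes also express, fell by 1.33 (SE 0.24, adjusted p = 0.00246), while Tpsab1 was too dim to be tested.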

How the data were processed

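Per the submitters' processing notes, the authors made the values with MAS5, and they deposited log2 values, 1 for each probe set on each array. The MAS5 version was not given in the sources used here. That the scale is log2 was read from the values, whose 2% trimmed mean in linear signal was 500.002 to 500.004 on all 11 arrays. No array was dropped and no detection calls were used. Of 45101 probe sets, 34945 carried a single symbol, 932 more than 1, and 9160 besides the controls carried none. Symbols were updated through gene identifiers to the GRCm38.p6 RefSeq names for 34741 of them.

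The dimmest 40% by mean (log2 signal under 6.06) were left out. The other 20967 probe sets were fitted with limma 3.58.1 in R 4.3.3, with variances moderated along the mean signal (5.5 prior degrees of freedom) and p-values adjusted by Benjamini-Hochberg over all of them. Every adjusted p comes from this model, unless another test is named, and a call is an adjusted p under 0.05. A listed gene was read by its brightest probe set. The standard error of a log2 difference had a median of 0.216, and the number of arrays limits the precision. Genes on a list that have no probe set with 1 symbol were not analysed here.

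The genes, lists and tests were chosen with earlier results of these data known. Named by rule were the 10 genes, Cd34, the 2 smallest p of each pathway list, the 2 brightest genes of each marker list and the 8 nearest to the class II profile. Others are marked in the text, apart from genes named to show their place on chromosome 17 or in the class II and costimulation lists. Alternatives were other normalizations, brightness filters, low-value treatments, array weights, moderation without the trend, the exact rank-sum test, a stricter threshold, the replicate number as a block, the actin ratio as a covariate and leaving out arrays. Same-numbered arrays correlated by 0.02 to 0.18 in their deviations from the group means, which does not exclude pairing. The numbers were not taken as pairs in the main fit.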

Additional observations from a re-analysis of the deposited data

Results flagged for a closer look

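In groups of 5 or 6 arrays, a value was singled out when its gap to the nearest other array, divided by the range of the group, passed Dixon's 95% limit. Chance alone gives about 1 such value in 20 groups, and 38 groups were examined. Of the 2 found, both belonged to the brightest Ciita probe set, 1421210_at. CD34+ array 3 read 5.80, against 6.65 to 6.90 on the other CD34+ arrays. CD34- array 1 read 5.04, against 5.97 to 6.36 on the other CD34- arrays.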

How the results depend on the processing

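Of 402 differences of tested probe sets under 26 other settings, 334 kept their direction and side of the threshold, 41 lost the call, 12 gained one and 15 changed sign. In place of 5 genes called higher and none lower, equal medians gave 0 and 1, and leaving out CD34+ arrays 4 and 5 gave 1 and 1. The count higher was 3 with the dimmest 60% left out (6 genes tested), 3 by the exact rank-sum test, 3 with the replicate block and 1 at an adjusted p under 0.01, beside 10.5%, 10.3%, 8.47% and 4.56% of all genes in that order. It was 6 with low values set to a floor, where Ciita was added, and 6 with array weights, where Cd74 was added, beside 15.9% and 11.4% in that order. Leaving out single arrays gave 3 to 6 higher and 0 lower. With the replicate number as a block, H2-Ab1 differed by 0.67 (adjusted p = 0.0522) and Itgax by 0.86 (adjusted p = 0.0902), neither of them called. In that fit H2-Aa differed by 0.97 (SE 0.16 in place of 0.25, adjusted p = 0.00594) and was called. H2-DMa was called as well (1.07, SE 0.22 in place of 0.21, adjusted p = 0.0126). No CD34+ array correlated best with the CD34- array of its own number.

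Sign changes, whose cause was not tested, fell on 5 probe sets, none of them called as deposited. H2-Aa 1452431_s_at was -0.25 with equal medians, -0.0051 without CD34+ replicate 5 and -0.39 without CD34+ arrays 4 and 5. H2-Ab1 1425477_x_at was 0.28 with low values set to a floor, 0.42 with array weights, 1.46 with the actin ratio as a covariate and 0.35 without CD34+ arrays 1 and 2. H2-Eb1 was -0.095 with equal medians and -0.12 without CD34+ arrays 4 and 5. Cd207 was -0.14 by quantile normalization, -0.24 with equal medians, -0.085 without CD34+ replicate 4, -0.075 without CD34+ replicate 5 and -0.61 without both, and leaving out single arrays gave values up to 1.04. Epcam 1416579_a_at was 0.44 with the actin covariate. Differences of the dim Ciita and Cd207 probe sets are limited by signal near the filter.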

Other observations

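H2-Ea and H2-DMb2 each have 3 probe sets, whose values differed within the gene. On the dimmer tested H2-Ea probe set, 1422891_at, CD34+ arrays 1 to 3 read 6.82, 7.22 and 7.33, arrays 4 and 5 read 9.52 and 8.95, and CD34- arrays read 6.87 to 8.83, with a mean difference of -0.25 (limma adjusted p = 0.739). On H2-DMb2 1419744_at, by contrast, CD34+ arrays 1 and 2 were the highest of all 11, at 7.11 and 7.24, and arrays 4 and 5 read 5.91 and 6.14, against 5.32 to 6.19 on CD34- arrays (difference 0.71, adjusted p = 0.157).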
